A study of Mus musculus with 6 samples.

Results

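The genes described here are 10 transcription factor genes that act downstream of the T cell receptor: Batf, Batf3, Jun, Junb, Jund, Fos and Fosl2 of the AP-1 and BATF family, Irf4 and Irf8 of the interferon regulatory factors, and Nfatc1 of the NFAT family. They were chosen by name, and all 10 have a row among the 27480 genes of the table. Their RNA was measured by bulk RNA sequencing in OT1 cells, CD8+ T cells of the mouse that all bear one transgenic receptor for an ovalbumin (OVA) peptide. There were 3 libraries of cells with a construct to overexpress PTMA (prothymosin alpha, a highly acidic protein of the nucleus) and 3 of cells with the empty overexpression vector. The labels give the genotype of every sample as wild type, and OVA peptide had been given for 48 h in both groups. The labels do not name the type of vector, its promoter, the species of the PTMA sequence, or the age or number of mice, nor do they say that libraries of a group came from separate animals or cultures. The p-values thus rest on variation among these 6 libraries alone, and it may be technical.

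AP-1 is a dimer of leucine zipper proteins, in which a Jun protein pairs with another Jun, a Fos or a BATF protein. BATF pairs with Jun proteins and, lacking the activation domain of Fos, binds next to IRF4 or IRF8 at shared sites in T cells. NFAT proteins are freed to enter the nucleus when receptor signals raise calcium and activate the phosphatase calcineurin, and with AP-1 they switch on cytokine and effector genes. In CD8+ T cells BATF and IRF4 are known to be needed for clonal expansion and effector differentiation, and NFAT without an AP-1 partner is known to drive genes of exhaustion.

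The upstream sequences of Jun and Irf8 are shown because each holds short motifs known from work on how the gene is controlled. For Jun these are the AP-1-like sites by which Jun protein acts on its own gene, best known from the human gene, and for Irf8 they are STAT-type palindromes of the kind by which interferon-gamma induces the mouse gene. Each line gives the 250 bases before the RefSeq transcript start on GRCm38.p6, 5′ to 3′ on the gene's strand, with the motifs in capitals. The Jun stretch is chr4:95052223-95052472 (minus strand) and the Irf8 stretch is chr8:120736108-120736357 (plus strand), each the one next to the gene start that the table lists.
Jun: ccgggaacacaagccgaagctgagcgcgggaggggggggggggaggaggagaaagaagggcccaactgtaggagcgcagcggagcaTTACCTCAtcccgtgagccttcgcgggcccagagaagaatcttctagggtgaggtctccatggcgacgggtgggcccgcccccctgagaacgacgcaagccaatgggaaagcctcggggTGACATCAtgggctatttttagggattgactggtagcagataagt
Irf8: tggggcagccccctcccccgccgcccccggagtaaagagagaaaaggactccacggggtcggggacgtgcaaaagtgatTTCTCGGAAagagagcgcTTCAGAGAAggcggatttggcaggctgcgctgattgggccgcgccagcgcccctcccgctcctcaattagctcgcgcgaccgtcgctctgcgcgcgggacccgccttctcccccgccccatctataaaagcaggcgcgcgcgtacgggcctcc
In Jun the letters TTACCTCA begin at position -164 and TGACATCA at position -45 from the transcript start. In Irf8 the pattern TTCNNNGAA, which reads alike on both strands, begins at positions -171 and -153. RefSeq windows were found for 9 of the 10 genes (not Nfatc1), with 2 windows for Irf8, so 10 windows in all, and 7 motifs were searched on both strands. TGACATCA was in 2.93% of the 32851 promoter windows of all genes, TTACCTCA in 0.728% and TTCNNNGAA in 7.02%. The NFAT core GGAAA was in 5 of the 10 windows (Batf, Batf3, Jun and both of Irf8) and in 55.6% of all windows, so it is common in any such stretch. It overlaps the Irf8 palindrome at -171. TTCNNNGAA was also found in Batf3, and the core of the interferon-stimulated response element was found in Fosl2 and in 2.98% of all windows. The consensus AP-1 site TGACTCA (4.46% of all windows) and the cAMP response element TGACGTCA (1.55%) were in none of the 10 windows, which says only that these letters are not in these stretches.

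The libraries held 65548729 to 66767589 counts in the PTMA group and 54989408 to 63011584 in the vector group. Markers of the labelled cell type were present: Cd8a stood at 634 to 682 CPM in PTMA libraries and 598 to 638 CPM in vector libraries (CPM, counts scaled by library size, here with TMM factors), and Cd4 at 0.185 to 1.15 CPM in PTMA libraries and 0.589 to 1.19 CPM in vector libraries. Ptma RNA was 1257 ± 98.0 CPM in PTMA libraries and 926 ± 193 CPM in vector libraries (SD, n = 3 per group). Its log2 fold change of 0.44 (SE 0.13) did not pass the test (edgeR, unadjusted p = 0.009, adjusted p = 0.951). Of all genes, 1.92% were higher in PTMA libraries at an unadjusted p under 0.05. The groups did not overlap for Ptma, narrowly, with 1152 CPM in PTMA 1 and 1146 CPM in vector 3. That held, with PTMA higher, for 5.39% of all genes. Whether RNA of the construct is counted under the mouse gene is not known, so this checks the labels only in part. Across 11 lists of cell type markers, the oocyte list summed to 1.55 to 4.33 CPM in PTMA libraries and 24.4 to 34.6 CPM in vector libraries. Of its 8 tested genes 6 were lower without overlap, against 5.38% of all genes. Of the 9 oocyte genes with a row, 6 had a mean under 1 CPM. The oocyte gene Gdf9 passed the test, and 0 tested genes of the other 10 lists did. The erythroid and neutrophil lists had 0 genes that could be tested. Sums of 2 further lists did not overlap. The erythroid list, on few counts, summed to 0.0765 to 0.182 CPM in PTMA libraries and 0.321 to 0.548 CPM in vector libraries. The stroma list summed to 212 to 217 CPM in PTMA libraries and 205 to 208 CPM in vector libraries. Most of the stroma sum came from Pecam1, at 210 to 214 CPM in PTMA libraries and 196 to 203 CPM in vector libraries. Of the 7 stroma genes with a row, 5 had a mean under 1 CPM. Of the 6 tested stroma genes, 2 had positive and 4 negative fold changes. The keratinocyte gene Krt14 set single libraries apart, with 389, 0 and 0 counts in PTMA 1 to 3 and 0, 985 and 1140 counts in vector 1 to 3. The part of such RNA in the values of the 10 genes was not tested. In bulk RNA, a change in the share of a cell type and a change of RNA per cell cannot be told apart.

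None of the 10 genes differed between PTMA and vector libraries past the test (edgeR quasi-likelihood, Benjamini-Hochberg over 16592 genes, threshold 0.05). The background is as sparse: 2 of the 16592 genes passed, 0.0121%, namely Gdf9 and Pkd2l2, both lower in PTMA libraries. That count was 0 without PTMA 3 or vector 1, 1 without vector 3 and 4 without PTMA 2, and DESeq2 gave 47 of 20002 genes (0.235%). At an unadjusted p under 0.05 there were 0 of the 10, against 4.65% of all genes (1.92% higher and 2.72% lower in PTMA), and DESeq2 and limma on log2(FPKM + 1) each called 0 of the 10. All 10 passed the filter on low counts. Log2 fold changes, PTMA minus vector, ran from -0.34 for Fosl2 to 0.89 for Batf3, with 6 positive and 4 negative and a median of 0.03, beside a median of -0.01 and 46.8% positive over all genes tested. For 1 of the 10, Fos, the groups did not overlap in CPM, against 10.8% of all genes (5.39% with PTMA higher and 5.38% with PTMA lower).

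**Figure D1:**
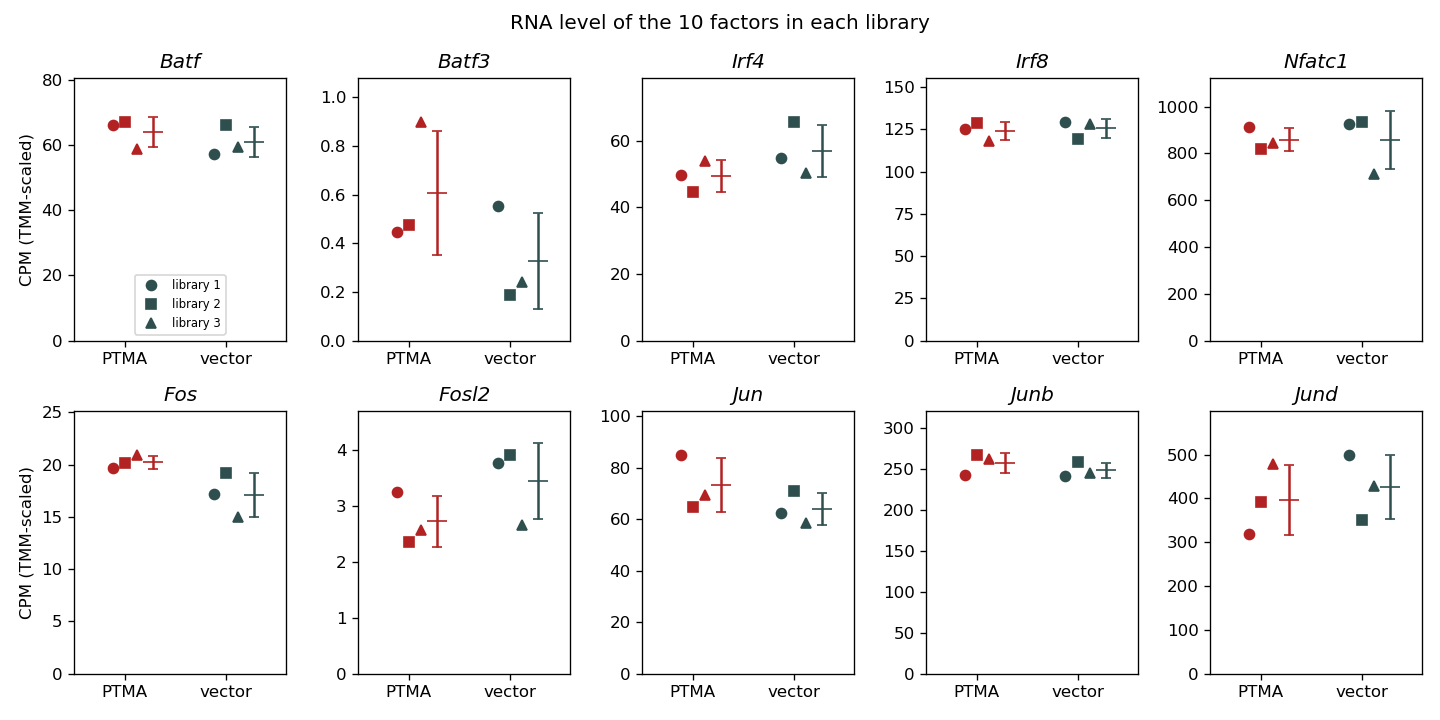
RNA level (CPM, TMM-scaled, linear axes from 0) of each of the 10 genes in the 3 PTMA and 3 vector libraries, with marker shape for the library number and a dash and bars for the mean and SD. The groups overlap for every gene but Fos, whose PTMA libraries sit at 19.7 to 20.9 CPM and vector libraries at 15.0 to 19.2 CPM.

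Batf (ENSMUSG00000034266, chromosome 12, 85686669 to 85709087, plus strand, GRCm38), which encodes the BATF protein that effector CD8+ T cells chiefly use, differed little between the groups. It had 66.1, 67.1 and 58.7 CPM in PTMA 1 to 3, against 57.2, 66.2 and 59.4 CPM in vector 1 to 3. PTMA 1, PTMA 2 and vector 2 were the higher libraries and the other 3 the lower ones, so the groups overlapped across most of their range. The means were 64.0 ± 4.57 CPM in PTMA libraries and 60.9 ± 4.68 CPM in vector libraries (SD, n = 3 per group). The log2 fold change was 0.07 (SE 0.09; edgeR, adjusted p = 0.956), and its 95% interval runs from a fold of 0.912 to one of 1.21. With 1 library left out the log2 value lay between 0.03 (without vector 1) and 0.14 (without PTMA 3 or vector 2).

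Batf3 (ENSMUSG00000026630, chromosome 1, 191097847 to 191108945, plus strand), the relative of BATF best known from the cross-presenting dendritic cells that need it and also active in CD8+ T cell memory, had few reads. Its raw counts were 29, 31 and 59 in PTMA 1 to 3 and 31, 12 and 15 in vector 1 to 3, which is 0.447, 0.474 and 0.898 CPM in PTMA libraries and 0.554, 0.186 and 0.242 CPM in vector libraries. PTMA 3 was the highest and vector 1 the second, above PTMA 1 and PTMA 2. The log2 fold change of 0.89 (SE 0.57; edgeR, adjusted p = 0.951) had the widest interval of the 10 genes, from a fold of 0.761 to one of 4.53. It was 1.50 without vector 1 and 0.51 without PTMA 3. Of 14 dendritic cell markers, 11 have a row and 10 could be tested, and 0 of these passed (Clec9a, Cd209a and Siglech were not analysed here). The list summed to 368 to 412 CPM in PTMA libraries and 361 to 392 CPM in vector libraries, most of it from Ccr7, which T cells also express. Of the 10 tested genes 6 had positive and 4 negative fold changes, the negative ones being Zbtb46 (-0.53 on the log2 scale), Il4i1 (-0.41), Itgax (-0.30) and Cd83 (-0.04). The groups did not overlap for 3 genes, all higher in PTMA libraries, against 5.39% of all genes. Ccl22, a chemokine of mature dendritic cells, stood at 5.99, 8.42 and 5.86 CPM in PTMA 1 to 3 and 2.09, 0.852 and 0.709 CPM in vector 1 to 3 (edgeR, adjusted p = 0.199). Fscn1, an actin-bundling protein, lay at 1.51 to 1.82 CPM in PTMA libraries and 0.0806 to 0.339 CPM in vector libraries (edgeR, adjusted p = 0.318). The calcium channel subunit gene Cacnb3 lay at 1.25 to 2.37 CPM in PTMA libraries and 0.232 to 0.387 CPM in vector libraries (edgeR, adjusted p = 0.239). Xcr1, which marks the dendritic cells that depend on Batf3, was at 6.79 to 10.4 CPM in PTMA libraries and 7.14 to 8.27 CPM in vector libraries. The part of these cells in the Batf3, Irf4 and Irf8 counts was not tested.

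Irf4 (ENSMUSG00000021356, chromosome 13, 30749226 to 30766976, plus strand), whose level follows the strength of the receptor signal, had 49.8, 44.5 and 53.8 CPM in PTMA 1 to 3, against 54.7, 65.5 and 50.2 CPM in vector 1 to 3. Vector 2 was the highest library and PTMA 2 the lowest, while PTMA 3 lay above vector 3. The means were 49.4 ± 4.69 CPM in PTMA libraries and 56.8 ± 7.87 CPM in vector libraries (SD, n = 3 per group). The log2 fold change was -0.20 (SE 0.12; edgeR, adjusted p = 0.951), with a 95% interval from a fold of 0.723 to one of 1.04. Vector 2 carried much of it, since the value without that library was -0.08 (adjusted p = 0.998). At the other end, the lowest value with 1 library left out was -0.28. The smallest adjusted p was 0.285 (edgeR, without vector 3).

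Irf8 (ENSMUSG00000041515, chromosome 8, 120736358 to 120756694, plus strand), which pairs with the same partners as IRF4 and is expressed in effector CD8+ T cells as well as in myeloid and B cells, was the most even of the 10. It stood at 125, 129 and 118 CPM in PTMA 1 to 3 and 129, 119 and 128 CPM in vector 1 to 3, so each group held high and low libraries. Its SD of log2 CPM over the 6 libraries was 0.06, and the 95% interval of the fold was 0.885 to 1.10 (log2 fold change -0.02, SE 0.07; edgeR, adjusted p = 0.981). Spi1 encodes PU.1, the partner of IRF4 and IRF8 in myeloid and B cells, and it did not pass the filter on low counts. Its raw counts were 12, 8 and 15 in PTMA 1 to 3 and 0 in every vector library, where a count of 0 allows up to 3 counts.

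Nfatc1 (ENSMUSG00000033016, chromosome 18, 80606205 to 80713071, minus strand), the NFAT gene that is itself induced by NFAT after receptor signals, had by far the most counts of the 10. Its levels were 913, 818 and 843 CPM in PTMA 1 to 3 and 924, 933 and 713 CPM in vector 1 to 3. Vector 3 stood below all 5 other libraries, and vector 1 and vector 2 above all 3 PTMA libraries. The group means were 858 ± 49.0 CPM in PTMA libraries and 857 ± 124 CPM in vector libraries (SD, n = 3 per group), and the log2 fold change was 0.00 (SE 0.10; edgeR, adjusted p = 0.998), with an interval from a fold of 0.850 to one of 1.18. Without vector 3 it was -0.11 (adjusted p = 0.41), and -0.03 when every library was scaled to one common sum.

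Fos (ENSMUSG00000021250, chromosome 12, 85473890 to 85477273, plus strand), an immediate-early gene whose RNA normally peaks within the first hour of a signal, had 19.7, 20.2 and 20.9 CPM in PTMA 1 to 3, against 17.2, 19.2 and 15.0 CPM in vector 1 to 3. Every PTMA library lay above every vector library, by a narrow margin between PTMA 1 and vector 2. The means were 20.2 ± 0.623 CPM in PTMA libraries and 17.1 ± 2.11 CPM in vector libraries (SD, n = 3 per group). The log2 fold change of 0.24 (SE 0.12) had the smallest unadjusted p of the 10 genes, 0.0669, and did not pass (edgeR, adjusted p = 0.951). Its interval ran from a fold of 0.986 to one of 1.42. The separation also depended on the scale: in FPKM (the authors' values, which allow for gene length and for library size) Fos was 7.51 in PTMA 1 and 7.66 in vector 2, so the groups overlapped there, a scale on which 10.1% of all genes do not overlap (5.48% with PTMA higher and 4.62% with PTMA lower). The value without vector 3 was 0.16 (adjusted p = 0.52), and the highest value with 1 library left out was 0.34.

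Fosl2 (ENSMUSG00000029135, chromosome 5, 32135801 to 32157842, plus strand), a Fos relative with slower kinetics, was weakly expressed at 3.23, 2.36 and 2.57 CPM in PTMA 1 to 3 and 3.77, 3.90 and 2.66 CPM in vector 1 to 3. Vector 3 lay among the PTMA libraries, below PTMA 1. Its log2 fold change was -0.34 (SE 0.23; edgeR, adjusted p = 0.951), with an interval from a fold of 0.549 to one of 1.14, and it lay between -0.49 (without vector 3) and -0.23 (without vector 2) with 1 library left out.

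Jun (ENSMUSG00000052684, chromosome 4, 95049034 to 95052222, minus strand), the AP-1 subunit whose own promoter holds the AP-1-like sites printed above, had 84.9, 64.9 and 69.5 CPM in PTMA 1 to 3 and 62.4, 70.9 and 58.5 CPM in vector 1 to 3. PTMA 1 stood above all the others, and vector 2 lay above PTMA 2 and PTMA 3. The log2 fold change was 0.19 (SE 0.12; edgeR, adjusted p = 0.951; interval from a fold of 0.951 to one of 1.37), and without PTMA 1 it was 0.07 (adjusted p = 0.992). The highest value with 1 library left out was 0.28. Fosb, named here after its values were seen, was also high in PTMA 1, at 6.50, 1.94 and 3.04 CPM in PTMA 1 to 3 against 2.66, 3.10 and 2.39 CPM in vector 1 to 3. Fosl1, also named after its values were seen, was highest in PTMA 1 too. It had 2.74, 1.87 and 1.57 CPM in PTMA 1 to 3 and 2.16, 1.83 and 1.90 CPM in vector 1 to 3. Jund, Junb, Fos and Fosl2 differed there. PTMA 1 was the lowest of all libraries for Jund and the lowest PTMA library for Junb and Fos. For Fosl2 it was the highest PTMA library, below vector 1 and vector 2. Junb (ENSMUSG00000052837, chromosome 8, 84976910 to 84978718, minus strand), which with BATF makes up a main dimer of activated T cells, was even, at 243, 267 and 262 CPM in PTMA 1 to 3 and 241, 258 and 245 CPM in vector 1 to 3. Its interval ran from a fold of 0.935 to one of 1.15 (log2 fold change 0.05, SE 0.07; edgeR, adjusted p = 0.956), and with 1 library left out the log2 value lay between 0.03 (without PTMA 2) and 0.09 (without PTMA 1 or vector 2).

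Jund (ENSMUSG00000071076, chromosome 8, 70698949 to 70700616, plus strand), the subunit that resting cells already express, varied more over the 6 libraries (SD of log2 CPM 0.25) than any of the 10 but the weakly expressed Fosl2 (0.30) and Batf3. It was 319, 391 and 478 CPM in PTMA 1 to 3 and 499, 351 and 428 CPM in vector 1 to 3. The lowest library was a PTMA library and the highest a vector library, but PTMA 3 lay above vector 2 and vector 3. The means were 396 ± 79.5 CPM in PTMA libraries and 426 ± 74.1 CPM in vector libraries (SD, n = 3 per group), and the log2 fold change was -0.10 (SE 0.16; edgeR, adjusted p = 0.956; interval from a fold of 0.725 to one of 1.19). It turned to 0.03 without PTMA 1 and to 0.02 without vector 1.

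**Figure D2:**
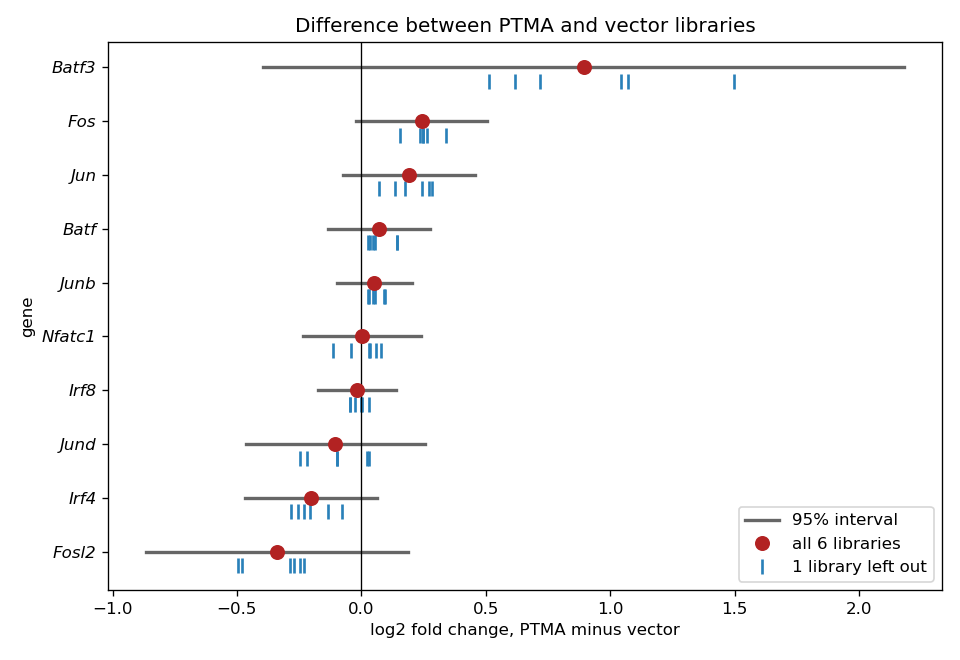
Log2 fold change of each gene, PTMA minus vector, from all 6 libraries (points) with its 95% interval (bars) and the 6 values with 1 library left out (ticks). Every interval spans 0, and the ticks fall on both sides of 0 for Nfatc1, Irf8 and Jund.

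Per gene length the 10 genes spanned a wide range. In FPKM, Jund had the highest mean over the 6 libraries (221), followed by Junb (126), Nfatc1 (103), Batf (40.0), Jun (19.3), Irf8 (15.9), Irf4 (9.76) and Fos (7.14). Fosl2 (0.285) and Batf3 (0.251) were far below, and the next gene above them, Fos, was 25.1 times as high as Fosl2. Jund exceeded 98.9% of the tested genes in mean FPKM, Batf 91.3% and Irf4 70.6%, while Fosl2 exceeded 18.8% and Batf3 17.3%. The ranges over libraries overlapped for 3 neighbouring pairs, Jun with Irf8, Irf4 with Fos, and Fosl2 with Batf3. Within each library Jun was above Irf8 and Irf4 above Fos in all 6, whereas Fosl2 was above Batf3 in 4. Junb and Nfatc1 met at the edge of their ranges, with 118 FPKM as the lowest Junb and as the highest Nfatc1 value, and Junb was higher within all 6 libraries.

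**Figure D3:**
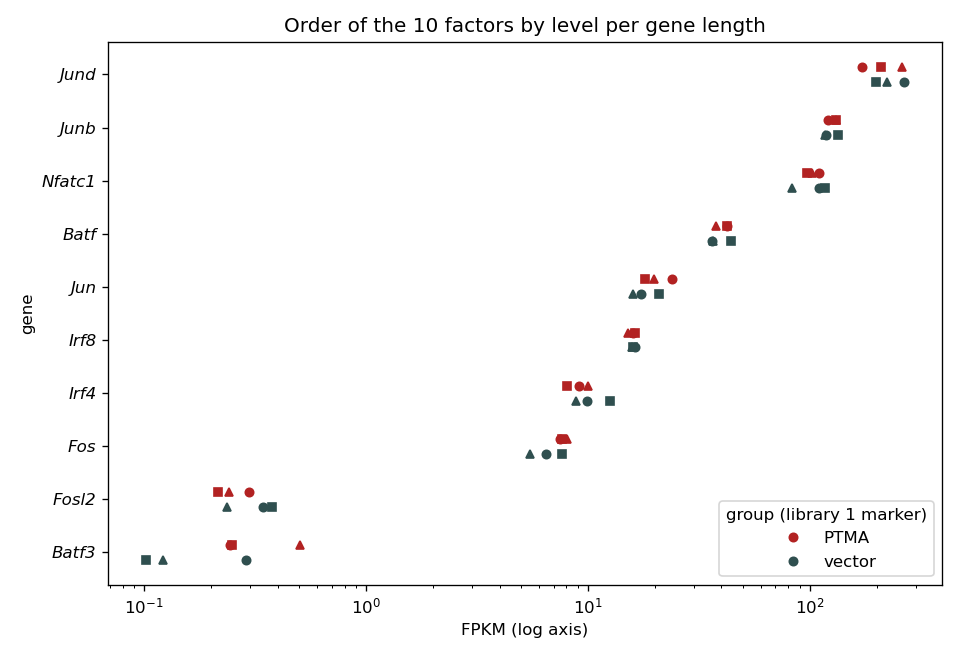
FPKM (log axis) of the 10 genes in each PTMA (upper row, red) and vector (lower row, dark) library, ordered by mean, with circles, squares and triangles for libraries 1, 2 and 3. The lowest value is Batf3 in vector 2 (0.102) and the highest Jund in vector 1 (266), and the order of the 8 upper genes is the same in both groups.

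Because relatives can replace one another in a dimer or at a shared site, the make-up of each small family was compared as shares of its FPKM sum. Jund gave 54.3%, 58.3% and 63.2% of the Jun, Junb and Jund sum in PTMA 1 to 3, against 66.2%, 56.1% and 62.5% in vector 1 to 3. Junb gave 35.6 ± 3.21% in PTMA libraries and 33.5 ± 4.29% in vector libraries, and Jun 5.81 ± 1.52% in PTMA libraries and 4.91 ± 0.885% in vector libraries (SD, n = 3 per group). Batf made up 98.7% to 99.4% of the Batf and Batf3 sum in PTMA libraries and 99.2% to 99.8% in vector libraries. Irf4 made up 36.4%, 33.2% and 39.6% of the Irf4 and Irf8 sum in PTMA 1 to 3 and 37.8%, 44.1% and 36.1% in vector 1 to 3. None of the 5 differences passed the test (two-sided exact permutation test, p = 0.3 for Batf and 0.5 to 0.6 for the others, adjusted over the 5 shares 0.6, where 3 against 3 libraries cannot go below 0.1).

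The other genes of these pathways, in 6 lists chosen with earlier results of these data known, gave no call either. Each list had 0 genes past the test in edgeR, in DESeq2 and in limma on log2(FPKM + 1). Among other AP-1 and related leucine zipper genes, 12 of 14 were tested, 6 with positive and 6 with negative fold changes (median 0.01). Of these 0 had an unadjusted p under 0.05, against 4.65% of all genes. Atf2, a CRE-binding partner of Jun, stood at 44.5 ± 1.79 CPM in PTMA libraries and 49.6 ± 2.62 CPM in vector libraries, and the stress-induced Atf3 at 5.23 ± 0.460 CPM in PTMA libraries and 4.08 ± 1.04 CPM in vector libraries (SD, n = 3 per group). Among other interferon regulatory factors and their partners, 11 of 13 were tested, 6 with positive fold changes, and the median was 0.02. Irf3, which drives type I interferon genes, was at 107 ± 2.13 CPM in PTMA libraries and 96.2 ± 4.42 CPM in vector libraries (SD, n = 3 per group), with a log2 fold change of 0.15 (SE 0.07; edgeR, adjusted p = 0.951).

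In the list of other NFAT genes, calcineurin and the calcium route, 25 of 27 were tested, 8 positive and 17 negative, with a median of -0.06. None had an unadjusted p under 0.05, against 4.65% of all genes. Gsk3b, a kinase that returns NFAT to the cytoplasm, had 71.9, 69.9 and 68.1 CPM in PTMA 1 to 3, against 87.7, 87.9 and 66.3 CPM in vector 1 to 3. Nfatc3, another calcium-regulated NFAT gene of T cells, had 107, 114 and 128 CPM in PTMA 1 to 3, against 137, 147 and 115 CPM in vector 1 to 3. In both genes vector 1 and vector 2 lay above every PTMA library and vector 3 did not. Nfatc1 had this order, and so did genes outside this list, such as Itch (below) and the T cell receptor complex gene Cd3e. Cd3e had 783, 657 and 686 CPM in PTMA 1 to 3 and 824, 796 and 694 CPM in vector 1 to 3. Junb did not have it, and its share over all genes was not computed, so the order is not taken as a trait of NFAT genes. In the list of kinases, phosphatases and ligases that lead to AP-1, 29 of 29 were tested, 10 positive and 19 negative (median -0.06). Itch, a ubiquitin ligase for Jun proteins, had the smallest p, at 64.4, 62.0 and 65.8 CPM in PTMA 1 to 3 and 80.1, 83.6 and 64.7 CPM in vector 1 to 3 (log2 fold change -0.25, SE 0.10; edgeR, adjusted p = 0.951). It was the 1 gene of the 29 with an unadjusted p under 0.05, against 4.65% of all genes. The ERK phosphatase gene Dusp5 was at 110.3 ± 2.11 CPM in PTMA libraries and 122 ± 5.93 CPM in vector libraries (SD, n = 3 per group). It was the 1 gene of the list without overlap between the groups, against 10.8% of all genes.

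Of 25 genes known as targets of NFAT, AP-1, BATF or IRF4 in T cells, 21 were tested, 12 positive and 9 negative (median 0.02). Nr4a3, a nuclear receptor gene induced by NFAT, was the 1 gene of the 21 with an unadjusted p under 0.05, against 4.65% of all genes. It stood at 24.1 ± 1.80 CPM in PTMA libraries and 30.0 ± 4.39 CPM in vector libraries. The cytokine gene Tnf was at 16.4, 18.8 and 17.0 CPM in PTMA 1 to 3 and 15.2, 16.2 and 13.7 CPM in vector 1 to 3. In the immediate-early list, which shares Fos, Jun, Junb and Jund with the 10 genes, 21 of 21 were tested, 12 positive and 9 negative (median 0.02). Of the 21, 2 had an unadjusted p under 0.05, against the same 4.65% of all genes. These were Btg2, an antiproliferative gene, at 127 ± 5.55 CPM in PTMA libraries and 150 ± 15.5 CPM in vector libraries, and the heat shock gene Hspa1b, near the floor at 0.189 ± 0.0755 CPM in PTMA libraries and 0.529 ± 0.180 CPM in vector libraries (SD, n = 3 per group). The lists with the lower medians, those of NFAT with calcineurin and of the route to AP-1, had 32.0% and 34.5% positive fold changes, beside 46.8% of all genes tested. Genes without overlap in CPM were also found in the lists besides that of Dusp5. There was 1 lower among other AP-1 genes, 3 higher among other IRF genes, and 1 higher and 3 lower in the NFAT list. The targets had 1 higher, and the immediate-early genes 2 higher and 2 lower, beside 5.39% higher and 5.38% lower of all genes.

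**Figure D4:**
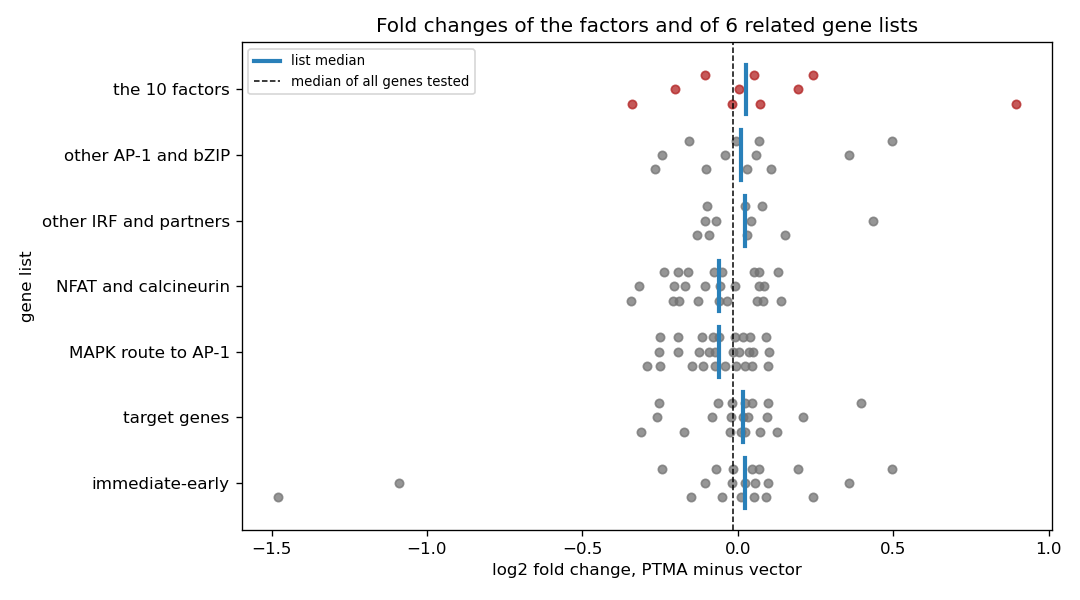
Log2 fold changes, PTMA minus vector, of the tested genes of the 10 factors (red) and of 6 related lists (grey, jittered by row), with list medians (blue bars) and the median of all genes tested (dashed line). List medians lie between -0.06 and 0.03, around the -0.01 of all genes.

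Of the 10 genes, Batf3 varied most over the 6 libraries (SD of log2 CPM 0.76). The tested genes of at least 1 CPM whose centred log2 CPM came nearest to its pattern over the 6 libraries were Mttp (root mean square difference 0.30), Gm8129 (0.36) and Tubb4a (0.38). Mttp, which loads lipid onto lipoproteins, had 4.08, 2.92 and 4.29 CPM in PTMA 1 to 3 and 4.86, 1.33 and 1.72 CPM in vector 1 to 3. Like Batf3 it had a high vector 1 and a low vector 2 and vector 3. This likeness follows from how Mttp was picked, over the same libraries and from all genes that could be compared. Batf3 itself had only 12 to 59 counts per library, and a link between the genes was not tested.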

How the data were processed

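Bulk RNA sequencing of 6 libraries was deposited by the authors as one table with raw counts per gene, not normalized, and FPKM, per the file headers. The build mm8 and the tools Bowtie 0.12.2, StringTie 1.3.0 and HISAT2 2.0 appear in the submitters' processing notes without their roles. Which program counted the reads, whether it used strand and what it did with reads of several matches is not given in the sources used here. Extraction text in the labels speaks of an adipose type, unlike the labelled cells. Gene coordinates shared a start or end with GENCODE M21 (GRCm38) for 99.7% of 27405 identifiers, so they are not those of mm8. The text prints these GRCm38 coordinates. Of genes that overlap a member in that annotation, the antisense gene Junos has 134 counts over the 6 libraries, beside 26022 for Jun, and Gm11175 has 13, beside 154794 for Jund.

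Groups and replicate numbers were taken from the sample titles. Counts were tested with edgeR 4.0.16 (R 4.3.3): TMM scaling, filterByExpr (minimum count 10), quasi-likelihood fit on group alone over all 6 libraries, leaving 16592 genes. P-values were adjusted by Benjamini-Hochberg with a threshold of 0.05. SE and 95% intervals come from the fitted coefficient and its F statistic. The procedure was tested on simulated counts. DESeq2 1.42.0 and limma 3.58.1 on log2(FPKM + 1) were alternatives, with other scalings and filters, a replicate block and each library left out in turn. No library repeated another of its group (chi-square per gene of 17.7 to 84.8). The value was 17.7 between vector 1 and vector 2, against 53.3 between vector 1 and vector 3 and 84.8 between vector 2 and vector 3. The floor for a count of 0 is 3 counts per library, or 0.0449 to 0.0546 CPM, and covers counting error only.

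The 10 genes and all lists were chosen with earlier results of these data known. Besides the members, the text names Ptma and, from each list with no call, the 2 genes with the smallest p, the 3 genes nearest in pattern to the most variable member, and abundant markers. Fosb, Fosl1, Cd3e, Spi1, Gdf9, Pkd2l2, Krt14 and the dendritic cell genes were named after their values were seen. A gene that the rule names is not reported here. Promoter sequences are from RefSeq (GRCm38.p6).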

Additional observations from a re-analysis of the deposited data

How the results depend on the processing

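No member passed the threshold in any alternative that tested it. Over 155 alternative values of the 10 log2 fold changes, 148 kept their sign and 7 reversed it, with a smallest adjusted p of 0.285 (Irf4 without vector 3). The number of genes past the threshold was 2 with median-of-ratios size factors, with libraries scaled to the same sum, with a mean CPM of at least 1 and with the robust fit. It was 0 with no filter on low counts, 47 with DESeq2, 1 with limma on log2(FPKM + 1) and 1 on log2(FPKM + 0.1), both at a minimum mean FPKM of 1, and 0 with limma without that filter. With 1 library left out there were 0 to 4 genes: 0 without PTMA 3 or vector 1, 1 without vector 3 and 4 without PTMA 2, and the cause was not tested. The same left log2 fold changes of -0.0474 to 0.0303 for Irf8, -0.247 to 0.0300 for Jund and -0.113 to 0.0774 for Nfatc1. Scaled to one common sum, Nfatc1 was -0.0284. The median over the members lay between -0.00189 and 0.0843 in all alternatives and kept its sign in 15 of 16. The medians of 4 further lists changed sign in at least 1 alternative. That of other AP-1 genes (-0.0829 to 0.0191) kept its sign in only 5 of 16, and that of other IRF genes (-0.0593 to 0.0437) in 10. Those of targets (-0.0111 to 0.0447) and of immediate-early genes (-0.00663 to 0.05) each kept theirs in 15. The replicate block gave 0 genes and 0 members. Libraries with the same number showed no shared deviation (correlation -0.12, -0.16 and -0.12, and 0 of 6 libraries correlated best with their own number), so the numbers are not taken to pair the samples. Batf3, Fosl2 and Hspa1b were too low for some FPKM and CPM filters and have fewer alternatives. With 3 libraries a group, single high or low libraries were not tested for.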
